A study of Mus musculus with 6 samples.

Results

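The microRNAs described here are the 8 hairpins of the Rtl1-antisense cluster, also called the miR-127 cluster, on mouse chromosome 12: miR-337, miR-540, miR-665, miR-431, miR-433, miR-127, miR-434 and miR-136 (genes Mir337 to Mir136), in their order along the chromosome. They were taken by name from the deposited count tables, sense strand only and both arms, which gave 15 of the 1102 entries. Arms are the 5p and 3p sides of the hairpin, each of which can yield a mature microRNA (miRNA). The 5p arm of miR-665 is not analysed here. Small RNA was sequenced from the hearts of 6 male wild-type mice of the inbred laboratory strain C57BL/6J, 18 weeks old, 1 library a heart, with no treatment in the labels, so there is 1 group and no contrast. The labels call the tissue whole heart, but their protocol describes frozen ventricular apex, so which part was sampled is unsure. Nothing in the labels says more of the 6 than that they are separate samples. The p-values of the arm and correlation tests therefore concern the spread between these libraries. Those of the chi-square tests set that spread against counting noise alone.

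The cluster lies in the imprinted Dlk1-Dio3 region, where the miRNAs are transcribed from the maternal chromosome and the protein-coding genes, Rtl1 among them, from the paternal one. Rtl1 is a gene derived from a retrotransposon and needed in the placenta, and miRNAs transcribed antisense to it match its mRNA perfectly and are known to guide its cleavage. These miRNAs are abundant in the embryo, placenta and brain, and are known in the adult mostly from brain and muscle.

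The 15 mature sequences are shown because reads are compared between arms and hairpins that differ in sequence, and because only some of them can pair fully with Rtl1. All 15 were found in RefSeq (GRCm38.p6), and capitals mark the seed, bases 2 to 8 from the 5′ end, which selects targets. The miRNAs of the 3 hairpins outside Rtl1 come first.
miR-337-5p: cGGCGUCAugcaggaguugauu
miR-337-3p: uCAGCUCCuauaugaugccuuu
miR-540-5p: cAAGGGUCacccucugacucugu
miR-540-3p: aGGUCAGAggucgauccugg
miR-665-3p: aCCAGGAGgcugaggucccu
The miRNAs of the 5 hairpins antisense to Rtl1 follow.
miR-431-5p: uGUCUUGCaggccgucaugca
miR-431-3p: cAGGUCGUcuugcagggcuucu
miR-433-5p: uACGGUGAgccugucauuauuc
miR-433-3p: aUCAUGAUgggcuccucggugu
miR-127-5p: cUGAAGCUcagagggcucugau
miR-127-3p: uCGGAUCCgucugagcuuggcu
miR-434-5p: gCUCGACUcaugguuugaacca
miR-434-3p: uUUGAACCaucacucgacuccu
miR-136-5p: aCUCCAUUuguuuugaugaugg
miR-136-3p: aUCAUCGUcucaaaugagucuu
The 15 seeds were all different, so the members form no seed family. Only miR-540-3p shared its seed with another mature miRNA of the RefSeq table, miR-6915-5p. The longest stretch in common between any members was GUCUUGCAGG, 10 bases found in both arms of miR-431. The arms of miR-434 shared UUUGAACCA (9 bases), and miR-337-5p and miR-431-5p shared CGUCAUGCA (9 bases). The interval in the files equalled that of RefSeq for 9 of the 15 and began at the same base for 13. For miR-337-3p and miR-136-3p it began 1 base earlier, and no interval ended more than 2 bases away.

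The hairpins span 9600 bases, from 109585789 to 109595388 on the plus strand of chromosome 12 (GRCm38, counted from 1). Rtl1 runs on the minus strand from 109589193 to 109600330, with its coding part from 109590172 to 109595403. The hairpins of miR-431 (109590447 to 109590537), miR-433 (109591715 to 109591838), miR-127 (109592846 to 109592915), miR-434 (109594506 to 109594599) and miR-136 (109595327 to 109595388) lie within this coding exon on the opposite strand. All 10 mature miRNAs of these 5 hairpins are complementary to the Rtl1 transcript over their full length. The hairpins of miR-337 (109585789 to 109585885), miR-540 (109586080 to 109586146) and miR-665 (109586314 to 109586407) overlap no part of Rtl1, and the last of them ends 2785 bases before the gene. The hairpin of miR-127, which held most of the reads, is shown with its mature arms in capitals.
pre-miR-127: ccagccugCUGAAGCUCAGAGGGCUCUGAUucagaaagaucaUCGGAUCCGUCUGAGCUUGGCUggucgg

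**Figure D1:**
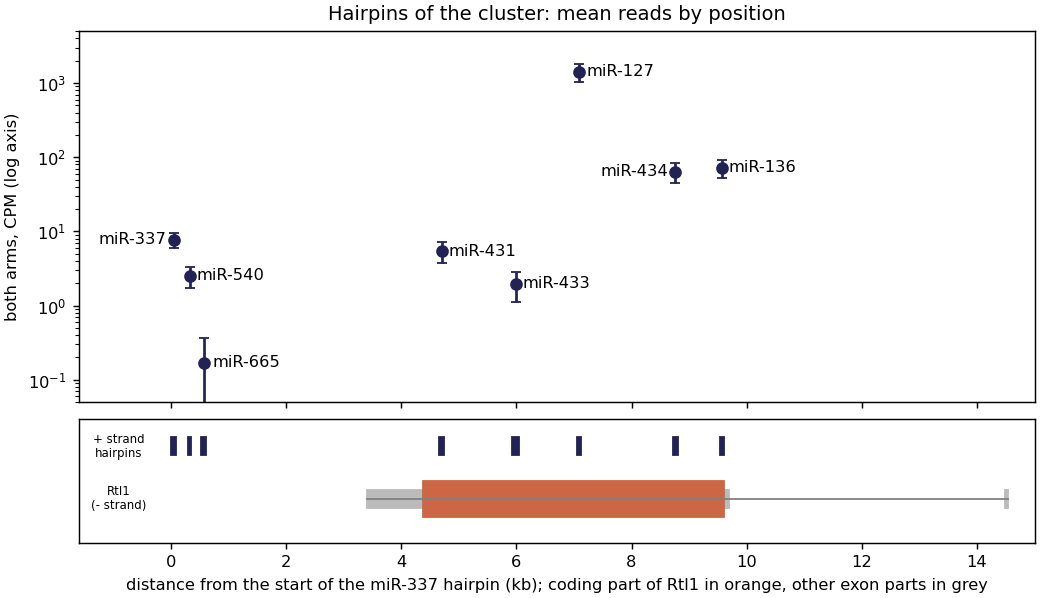
Upper panel: mean reads of each hairpin, both arms together, in CPM (log axis) against the distance from the start of the miR-337 hairpin in kb; bars are SD over 6 hearts, and that of miR-665 runs below the axis. Lower panel: the hairpins on the plus strand and Rtl1 on the minus strand; miR-127, miR-434 and miR-136, the 3 highest, lie inside its coding part.

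The libraries held 3966171 to 6007325 counts, so 10 reads stand for 1.66 to 2.52 CPM (counts per 1000000 of the library). A count of 0 allows up to 3 counts, or 0.499 to 0.756 CPM. Reads carry no molecular identifiers, so intervals and limits cover counting error only. Adapter ligation favours some RNA ends, so a ratio between different miRNAs or arms is a ratio of reads and not of molecules. The cardiac muscle miRNAs (miR-1a, miR-133a, miR-208a and miR-499, 4 of 4 with an entry) summed to 94454 to 106879 CPM. No list of cell-type markers, from muscle to nerve and liver, was at 0 in any heart. In whole tissue, fewer cells of a type and less RNA per cell cannot be told apart.

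The cluster held 0.157% ± 0.0417 (SD, n = 6) of the counts, and miR-127 made up 90.2% ± 0.386 of that. The shares of the library in hearts 1 to 6 were 0.135%, 0.131%, 0.157%, 0.15%, 0.239% and 0.130%. Heart 5 stood above the other 5, which lay close together. It was also the deepest library, with 6007325 counts against 3966171 to 5602777 in the others. A part of depth in this was not tested. miR-136 and miR-434 made up 4.59% ± 0.382 and 4.07% ± 0.139 of the cluster's reads, and the other 5 hairpins together the small rest. The library totals used here and for CPM include the antisense entries moved to a hairpin. Against totals of sense entries alone, the cluster held 0.181% ± 0.0466 (0.148% to 0.272%, highest in heart 5).

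miR-127-3p, known in human cells for targeting the repressor BCL6, was the most abundant member and ranked 48 among all 978 mature miRNAs. It had 5751, 5853, 6031, 5328, 12928 and 6558 reads in hearts 1 to 6, or 1413 ± 376 CPM. Heart 5, with 2152 CPM, was above the 1170 to 1427 CPM of the others. miR-127-5p, the other arm of that hairpin, had 7, 16, 8, 11, 21 and 15 reads (2.59 ± 0.775 CPM), with no heart apart.

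The miR-136 and miR-434 hairpins formed the next level, both with reads from each arm. miR-136-3p had 221, 217, 207, 226, 511 and 219 reads (53.4 ± 16.6 CPM), and miR-434-3p had 186, 183, 194, 170, 432 and 236 reads (46.5 ± 12.9 CPM). In both, heart 5 lay above the others, which were close together. miR-136-5p had 99, 72, 71, 79, 135 and 94 reads (18.5 ± 3.0 CPM), and heart 5 (22.5 CPM) was close to heart 1 (20.8 CPM). miR-434-5p had 79, 76, 69, 62, 175 and 70 reads (17.6 ± 5.85 CPM), with heart 5 again above the rest.

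Near the limit of this depth were miR-337-5p and miR-431-5p. miR-337-5p had 25, 24, 33, 23, 48 and 22 reads (5.93 ± 1.64 CPM), where hearts 3 and 5 were nearly level in CPM. miR-431-5p, known from skeletal muscle satellite cells, had 15, 20, 22, 25, 43 and 23 reads (4.99 ± 1.52 CPM), a gradual spread with heart 5 highest and heart 1 lowest. The other 7 of the 15 entries had a mean under 10 reads. Of these, miR-433-3p, studied in cardiac fibrosis, had 3 to 19 reads a heart, and miR-337-3p 4 to 15. miR-540-5p had 4 to 13 reads and miR-540-3p 3 to 9. The remaining 3 were nearly unread: miR-431-3p had 13 reads over the 6 hearts, miR-665-3p 5 and miR-433-5p 1. miR-665-3p had 0 reads in 3 hearts, which allows up to 0.756 CPM in the shallowest of them.

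**Figure D2:**
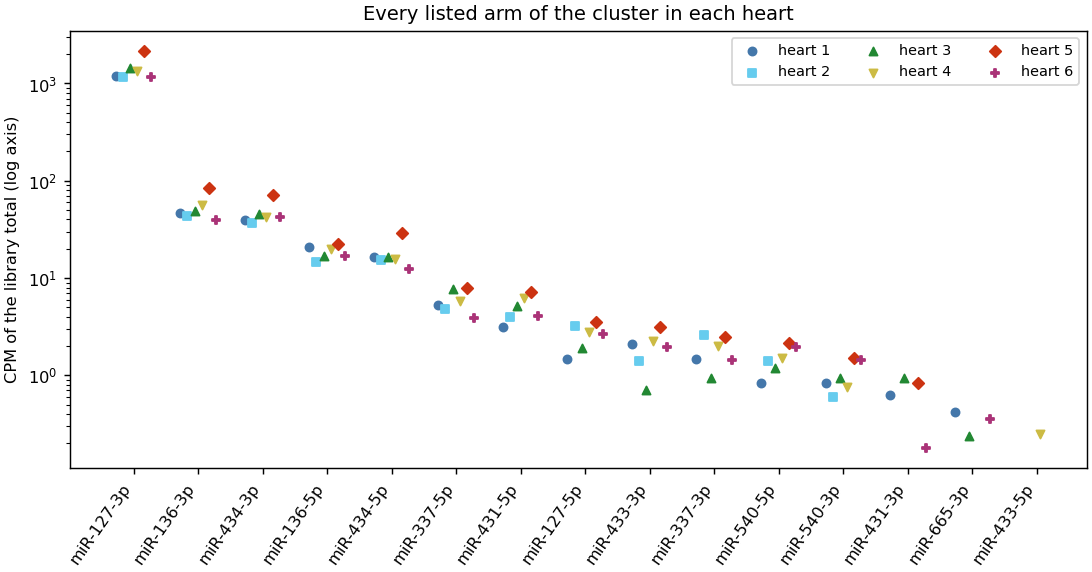
Reads of the 15 listed arms in CPM of the library total (log axis), 1 point a heart, ordered by mean; an arm with 0 reads in a heart has no point there. The range runs from 1170 to 2152 CPM for miR-127-3p down to 1 read for miR-433-5p, and heart 5 (diamonds) is the highest for the 5 most abundant arms.

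Ordered by hairpin gene, both arms together, the level fell in steps. Mir127 (1416 ± 376 CPM) had 19.8 times the reads of Mir136 (71.9 ± 19.0 CPM), with ratios of 17.5 to 21.7 over the hearts. Mir136 exceeded Mir434 (64.0 ± 18.5 CPM) in 6 of 6 hearts, 1.11-fold over the pooled reads (1.02 to 1.31). The log2 ratio within a heart was 0.17 ± 0.14 (SD), a small difference of one direction in every heart. Mir434 had 8.4 times the reads of Mir337 (7.76 ± 1.75 CPM), in 6 of 6 hearts. Mir337 exceeded Mir431 (5.42 ± 1.66 CPM) 1.43-fold, and Mir431 exceeded Mir540 (2.52 ± 0.805 CPM) 2.09-fold, each in 6 of 6 hearts. Mir540 and Mir433 (1.98 ± 0.854 CPM) changed places between hearts, with Mir540 higher in 4 of 6 and a ratio of 0.8 to 3.0. Mir665, read from its 3p arm alone here, was lowest at 0.169 ± 0.194 CPM. Between single arms, neighbours in the order were often not separable: miR-136-3p exceeded miR-434-3p in 5 of 6 hearts, and miR-136-5p exceeded miR-434-5p in 4 of 6.

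The hairpins differed in which arm gave the reads. The test took hairpins with entries for both arms and 10 or more reads on average over them. A call needed a 2-fold or larger ratio and an adjusted p under 0.05 in the edgeR quasi-likelihood test (library as block, Benjamini-Hochberg). This called 191 of 214 hairpins (89.3%), 104 (48.6%) with more 5p and 87 (40.7%) with more 3p reads. Of the 7 members tested 6 were called, close to that background share, 2 with more 5p and 4 with more 3p reads.

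miR-337 and miR-431 gave mainly 5p reads. miR-337 had 175 reads of 5p against 55 of 3p, 76.1% from the 5p arm (exact Clopper-Pearson 95% interval 70.0 to 81.4). In hearts 1 to 6 the 5p share was 78.1%, 64.9%, 89.2%, 74.2%, 76.2% and 73.3%, above 50% in every heart. miR-431 had 148 against 13, or 91.9% (86.6 to 95.6), and its share ran from 83.3% in heart 1 to 100% in hearts 2 and 4, which had no 3p read. The log2 ratios of 5p to 3p were 1.66 ± 0.25 (SE) for miR-337 and 3.44 ± 0.36 for miR-431, 3.15-fold and 10.9-fold more 5p reads, in 6 of 6 hearts each. The largest adjusted p of the 6 calls was 8.52e-11, that of miR-337 (edgeR quasi-likelihood test).

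miR-433, miR-127, miR-434 and miR-136, the 4 hairpins farthest along the chromosome, gave mainly 3p reads. miR-127 stood at 0.183% of 5p reads (0.145 to 0.229), with 78 against 42449 and heart values of 0.122% to 0.273%. Its log2 ratio was -9.07 ± 0.16, or 536-fold more 3p, the 17th largest 3p excess among the hairpins tested. miR-433 had 1 read of 5p, in heart 4, against 59 of 3p (log2 ratio -5.09 ± 0.76). Without heart 4 there was no 5p read, and the fitted ratio of -6.34 ± 3.78 then depends on the fit and gives no bound, so the size of this ratio rests on 1 read. The arms of miR-434 and miR-136 were far less unequal. miR-434 gave 27.5% from the 5p arm (25.5 to 29.5), with 29.8%, 29.3%, 26.2%, 26.7%, 28.8% and 22.9% in hearts 1 to 6. miR-136 gave 25.6% (23.7 to 27.5), with 30.9%, 24.9%, 25.5%, 25.9%, 20.9% and 30.0%. Their log2 ratios were -1.41 ± 0.13 and -1.50 ± 0.13, 2.66-fold and 2.83-fold more 3p, in 6 of 6 hearts each.

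miR-540 was not called. Its 46 reads of 5p and 31 of 3p put the 5p share at 59.7% (47.9 to 70.8), with 5p higher in 5 of 6 hearts and equal in heart 1. The log2 ratio was 0.56 ± 0.38 (edgeR adjusted p = 0.132, with 0.124 to 0.257 over its alternatives), a bias that could not be told from even at this depth. Over the 7 members the median size of the log2 ratio was 1.66, against 5.0 over all 214 hairpins.

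**Figure D3:**
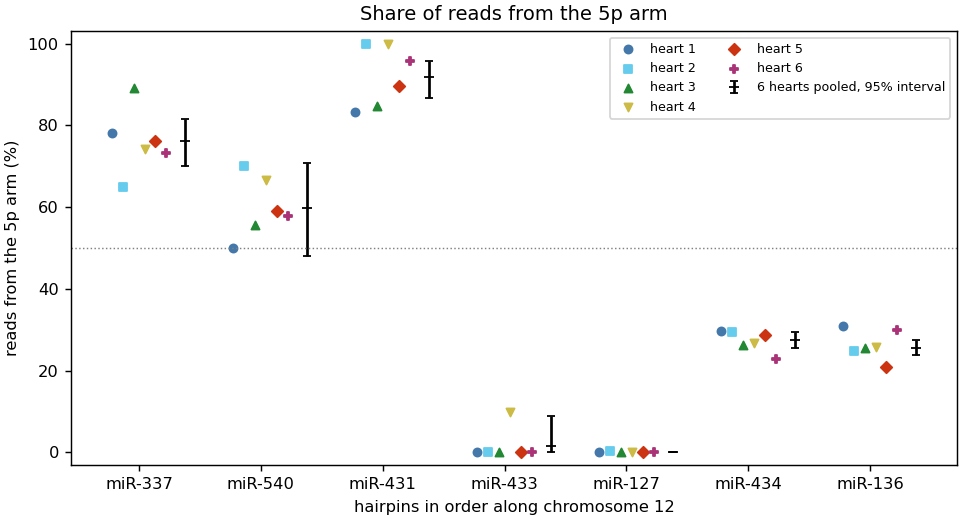
Percent of a hairpin's reads that came from the 5p arm, 1 point a heart, with the pooled share and its exact 95% interval beside them; the dotted line marks equal arms. miR-337 and miR-431 lie above it in every heart, and miR-433, miR-127, miR-434 and miR-136 below it.

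**Figure D4:**
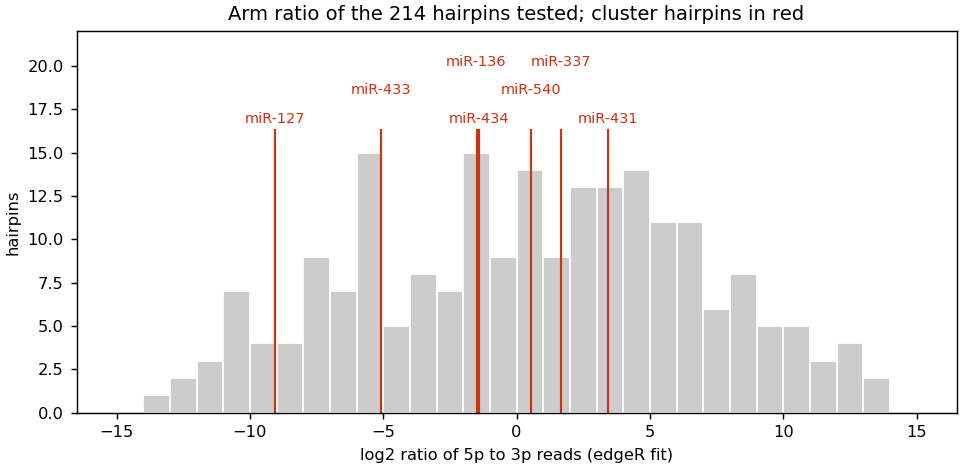
Histogram of the fitted log2 ratio of 5p to 3p reads for the 214 hairpins tested, with the 7 cluster members as vertical lines. The members range from -9.07 (miR-127) to 3.44 (miR-431), and 4 of the 7 lie between -1.50 and 1.66.

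The first base of the arms was compared with the arm that was read, since a U at the 5′ end is known to favour loading into Argonaute. Among 158 called hairpins with both sequences in RefSeq, the more abundant arm began with U in 89 (56.3%) and the less abundant in 15.2%. Of the 6 called members, the more abundant arm began with U in 3 (miR-127, miR-431 and miR-434) and the less abundant in 2 (miR-337 and miR-433). Both arms of miR-136 begin with A.

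Whether a hairpin kept 1 arm ratio over the hearts was tested next. A chi-square test of the arms by 6 libraries found a varying share in 61 of 120 hairpins (50.8%, Benjamini-Hochberg adjusted p under 0.05) and in 1 of the 4 members with enough reads. This was miR-136 (adjusted p = 0.0195), whose 5p share was lowest in heart 5 and highest in heart 1. Without heart 1, or without heart 5, it was not called. miR-127 (adjusted p = 0.408), miR-337 (0.358) and miR-434 (0.465) were not called in any case tried.

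How far the levels of the members varied between hearts beyond counting noise depended on the scaling. Against the library totals, 250 of the 348 miRNAs that averaged at least 10 reads varied (71.8%, chi-square test, Benjamini-Hochberg), and so did 7 of the 8 members that passed this minimum. Above a mean of 100 reads it was 90.4% of 208 miRNAs, and 3 of 3 members. These shares are near those of all miRNAs. miR-127-5p did not (adjusted p = 0.379). For miR-337-5p (0.0483), miR-431-5p (0.0478) and miR-136-5p (0.038) the adjusted p was near the threshold, and these 3 were not called after TMM scaling, edgeR's correction for composition. The 4 of 8 called under TMM were miR-127-3p, miR-136-3p, miR-434-3p and miR-434-5p, against 70.7% of all miRNAs. Without heart 5, on library totals, 2 of 8 were called (miR-127-3p and miR-136-3p), against 65.5% of all. The biological coefficient of variation (BCV, edgeR's spread beyond counting) was 19.0% for miR-127-3p and 24.3% for miR-434-5p, the highest of the 8. The lowest of the 8 was 16.3%, for miR-136-5p. The median of the 8 was 21.9%, against 17.6% over the 348 miRNAs. Over the 208 with at least 100 reads, which hold 3 of the 8 members, it was 15.2%. The medians are thus not matched for abundance, and all these values include heart 5.

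The hearts did not contribute equally to that spread. After TMM scaling heart 5 was the highest heart for 8 of 8 members, where 22.1% of all 348 miRNAs have it highest. These 8 include both arms of miR-127, miR-434 and miR-136 and come from 1 cluster, so they are not 8 independent cases. miR-127-3p stood at 2082 CPM in heart 5 and at 1209 to 1411 in the others, miR-434-3p at 69.6 against 38.4 to 45.4, and miR-136-3p at 82.3 against 41.6 to 53.7. In these and in miR-434-5p (28.2 against 13.3 to 16.6) the gap passed Dixon's limit for 1 value apart, which 4.31% of all miRNAs did with heart 5 highest and 10.3% with any heart apart. The margins of miR-337-5p (7.73 against 7.72 in heart 3) and miR-127-5p (3.38 against 3.35 in heart 2) were too small to count as a difference. The median ratio of heart 5 to the mean of the others was 1.58 over the 8 members and 0.971 over all miRNAs.

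Other miRNA groups also stood high in heart 5, given here in CPM after TMM scaling. The cartilage marker miR-140 (1 of 1 with an entry) summed to 2014 in heart 5 and to 651 to 905 in the others, with both arms highest there. On the fibroblast and mesenchymal list (4 of 4), heart 5 was highest for 6 of the 8 mature miRNAs that averaged at least 10 reads, at 0.941 to 1.71 times the mean of the others. The 6 are both arms of miR-199a, miR-199b and miR-214, such as miR-199a-3p with 4739 against 2579 to 3073. The 3p arms of miR-199a and miR-199b are identical in mature sequence, so which hairpin gave a read is unsure. The sum of this list is mostly miR-10b, which was at 16832 in heart 5 and 14559 to 21445 in the others. Without miR-10b, a split made after its values were seen, the list summed to 5891 in heart 5 and to 3393 to 3942 in the others, 1.64 times their mean.

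The remaining lists did not set heart 5 apart in this way. The smooth muscle list (miR-143 and miR-145a, 2 of 2) summed to 110343 in heart 5, against 62372 to 109896 elsewhere, and heart 5 was highest for 1 of its 4 mature miRNAs. The cardiac muscle (4 of 4) and leukocyte (3 of 4) lists had their lowest sums in heart 5, at 91359 against 94232 to 106453 and at 1971 against 2203 to 2836. Heart 5 was highest for 0 of their 8 and 5 mature miRNAs. The cardiac sum is mostly miR-133a-3p, at 80796 in heart 5. Against the mean of the other hearts, the cardiac miRNAs stood at 0.464 to 1.13 times in heart 5, with miR-1a-3p highest. The leukocyte miRNAs stood at 0.388 to 0.933 times. The neural list (miR-9 and miR-124, 2 of 2) was highest in heart 5 by a small margin, at 26.6 against 21.4 to 25.7. So was miR-9-5p, its 1 miRNA that averaged at least 10 reads (24.8 against 19.3 to 23.3). The endothelial, erythroid and liver sums of heart 5 lay within the range of the other hearts. The part of these cell types in the level of the cluster was not tested.

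**Figure D5:**
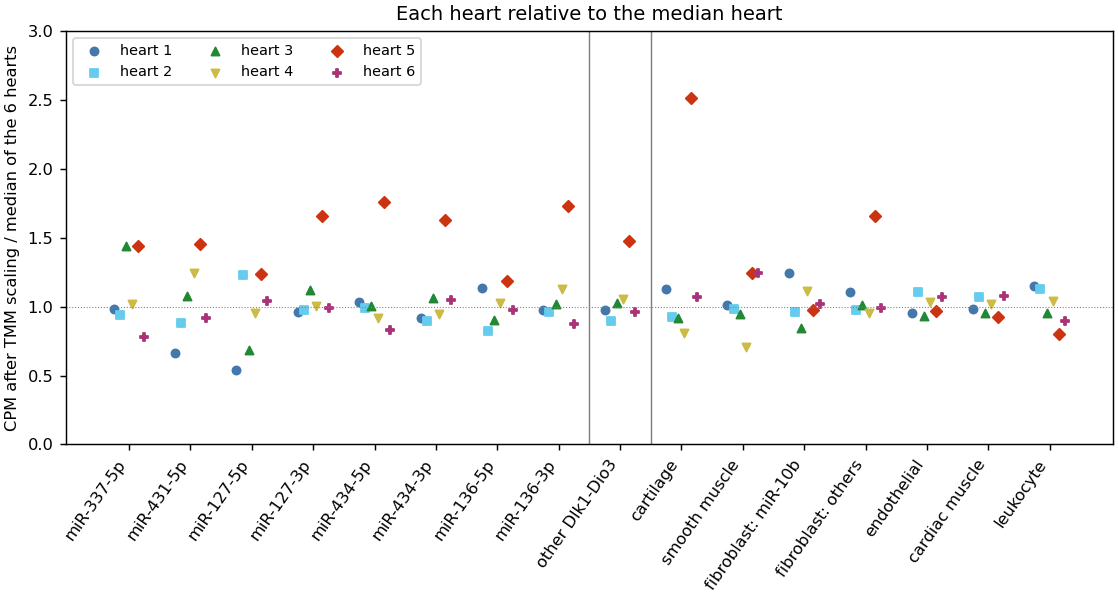
CPM after TMM scaling divided by the median of the 6 hearts, 1 point a heart, for the 8 members that averaged at least 10 reads, the other Dlk1-Dio3 miRNAs and summed marker lists, the fibroblast list split into miR-10b and the others. Heart 5 (diamonds) is well above the rest for miR-127-3p, both arms of miR-434, miR-136-3p, the other Dlk1-Dio3 miRNAs, cartilage and the fibroblast list without miR-10b, and not for miR-10b or cardiac muscle.

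The other members were also set against miR-127-3p, in a comparison added after the levels were seen. Per 1000 reads of miR-127-3p, miR-434-3p had 32.3, 31.3, 32.2, 31.9, 33.4 and 36.0 reads in hearts 1 to 6. miR-136-3p had 38.4, 37.1, 34.3, 42.4, 39.5 and 33.4, and miR-434-5p had 13.7, 13.0, 11.4, 11.6, 13.5 and 10.7. In these 3 heart 5 no longer stood apart. A chi-square test found that the ratio to miR-127-3p varied beyond counting for 291 of 347 miRNAs (83.9%), but for 1 of 7 members. This 1 was miR-136-5p (adjusted p = 0.00493), which ran from 10.4 in heart 5 to 17.2 in heart 1.

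Few reads limit this test, so it was also read by abundance. The ratio varied for 64.3% of the 140 miRNAs with a mean of 10 to 100 reads, a band that holds 5 of the 7 members. It varied for 94.6% of the 112 with 100 to 1000 reads, where miR-434-3p (adjusted p = 0.759) and miR-136-3p (0.118) were not called. Of the 17 other Dlk1-Dio3 miRNAs tested 5 varied (29.4%). Without heart 1, 0 of 7 members varied against 81.8% of all, and without heart 5, 0 of 7 against 65.1%. miR-136-5p, the exception, was thus called only with both hearts present.

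Correlations between members were mostly positive over the 6 hearts and lower without heart 5. Between members of different hairpins there were 25 pairs, with a median Pearson r of 0.595 (lowest -0.200, highest 0.975) and a median Spearman rho of 0.543. The median r over all 60264 such pairs of miRNAs was -0.004. An r of at least 0.8 was found in 5 of 25 member pairs, and in 3.69% of all pairs. An unadjusted exact p under 0.05 was found in 3 of 25 (6.09% of all), and 0 of 25 passed after Benjamini-Hochberg adjustment over all pairs (0% of all; exact permutation test, two-sided). The smallest exact p that 6 hearts allow is 0.00278, and the smallest adjusted p of any pair was 0.708. Without heart 5 the median r of the member pairs was 0.131, and 1 pair reached 0.8 (6.41% of all pairs).

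The 3 pairs with a small unadjusted p of r included miR-127-3p in 2 cases. miR-127-3p and miR-434-3p had r = 0.975 (exact permutation p = 0.0306, adjusted p = 0.751) and rho = 0.886 (exact permutation p = 0.0333, adjusted p = 0.754). Hearts 3 and 5 lay farthest from the median of miR-127-3p, and without them r was 0.475, so the relation leans on them. miR-127-3p and miR-431-5p had r = 0.74 (exact permutation p = 0.0444, adjusted p = 0.770) and rho = 0.943 (exact permutation p = 0.0167, adjusted p = 0.74), and r = 0.964 without those hearts. miR-136-3p and miR-431-5p had r = 0.759 (exact permutation p = 0.0444, adjusted p = 0.770) and rho = 0.771 (exact permutation p = 0.103, adjusted p = 0.830), and r = 0.789 without hearts 5 and 6. Without heart 5 alone, the r of these 3 pairs was lower, at 0.713, 0.577 and 0.578 in the order given. By rho only, miR-136-3p and miR-337-5p also had a small unadjusted p (rho = 0.943, exact permutation p = 0.0167, adjusted p = 0.74), with r = 0.706.

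Among the arms of other hairpins, miR-136-5p had the lowest r with miR-127-3p. It was 0.520 (exact permutation p = 0.314, adjusted p = 0.901) and rho 0.257 (exact permutation p = 0.658, adjusted p = 0.965), and r was -0.119 without hearts 3 and 5. The arms of one hairpin, which come from the same precursor, had an r of 0.859 for miR-434, 0.620 for miR-136 and 0.390 for miR-127, given as a description. These values leaned on heart 5: without it r was -0.469 for miR-434, 0.180 for miR-136 and -0.216 for miR-127. For miR-127 the 5p arm had at most 21 reads a heart, and its spread was not called beyond counting noise.

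The other miRNAs of the Dlk1-Dio3 region showed where the cluster stands in it. Of 53 hairpin names listed, 38 had an entry, giving 63 mature miRNAs, of which 17 averaged at least 10 reads. The 5 most abundant were miR-411-5p (227 ± 52.1 CPM), miR-541-5p (96.6 ± 20.3), miR-381-3p (26.9 ± 7.20), miR-410-3p (24.9 ± 6.81) and miR-300-3p (20.9 ± 6.81). miR-411-5p and miR-541-5p therefore lay between miR-127-3p and miR-136-3p in level. Heart 5 was the highest for 12 of the 17, where 22.1% of all 348 miRNAs have it highest. On library totals 10 of the 17 varied beyond counting, not more than the 71.8% of all 348. Their median ratio of heart 5 to the others was 1.51, close to the 1.58 of the cluster.

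On the Dlk1 side of the cluster the annotated miRNAs were sparse. miR-673-5p had 30, 29, 40, 36, 76 and 26 reads (8.0 ± 2.96 CPM), with heart 5 highest. miR-770-5p had 1 read over the 6 hearts, and miR-493 had 5 over both arms. The summed cluster had 2.99 to 3.50 times the CPM of the other Dlk1-Dio3 miRNAs in every heart (3.26 ± 0.20), with the highest ratio in heart 5 and the lowest in heart 4. On the log2 scale after TMM the sums had r = 0.961 and rho = 0.771 over the 6 hearts, as a description. Without hearts 3 and 5 r was 0.717, and without heart 5 alone 0.562.

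Of 205 miRNAs outside the cluster that averaged at least 100 reads, the 10 most like the summed cluster over the 6 hearts by Pearson r were, in order, miR-411-5p (0.953), miR-199a-3p (0.920), miR-300-3p (0.915), miR-199b-3p (0.912), miR-140-3p (0.900), miR-100-5p (0.864), miR-125b-5p (0.862), miR-410-3p (0.858), miR-214-3p (0.850) and miR-140-5p (0.848). Of these, 3 belong to the Dlk1-Dio3 list, which had 5 among those compared. miR-199a, miR-199b and miR-214 are on the fibroblast and mesenchymal list, and miR-140 is the cartilage marker. All 10 were highest in heart 5, and the r of miR-199a-3p without hearts 3 and 5 was -0.742, while that of miR-125b-5p was 0.918. Without heart 5 alone, the r of the 10 lay between -0.735 and 0.595.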

How the data were processed

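Small RNA libraries (TruSeq, adapters ligated to both ends, per the labels' protocols) of 6 hearts were used. The authors deposited 1 table a library with whole-number read counts per mature miRNA and locus, not normalized. Per the submitters' processing notes the genome was GRCm38; DESeq and edgeR are listed there with no role. Which aligner and counter were run, and how reads with several matching loci were treated, is not given in the sources used here.

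Of 1102 entries, 1026 were sense. Of 76 antisense entries, 39 were moved to a hairpin annotated on the opposite strand at that position and 37 were left out. Entries of one mature name were summed, giving 978 mature miRNAs. All tests were fitted on the whole table and p-values adjusted over it by Benjamini-Hochberg (R 4.3.3, edgeR 4.0.16, DESeq2 1.42.0, scipy 1.17.1), and were tested on simulated data. Correlations used log2 CPM after TMM with a prior count of 1. Library was the block in the arm test, since both arms come from the same library.

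Every listed arm is named, with values in every heart above a mean of 10 reads; from the rest, the 5 highest Dlk1-Dio3 miRNAs, those next to the cluster and the 10 most like the summed cluster. The members and lists were chosen with earlier results of these data known. The ratio to miR-127-3p, its abundance bands (the second limits tried), the count of r of at least 0.8, the first-base count, the fibroblast list without miR-10b and the arm share without single hearts were added after the data were seen. Alternatives were other scalings, filters, a prior count of 5, DESeq2, no replicate block and leaving out each heart. Every 2 libraries differed by more than sampling noise.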

Additional observations from a re-analysis of the deposited data

Results flagged for a closer look

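Of 24 sets of 6 values examined, 7 had 1 heart farther from the others than Dixon's 95% limit for 6 samples. Chance flags about 1 in 20 sets if values are normally distributed, and 10.3% of the 348 miRNAs passed this limit. The sets are not independent, since 6 of the 7 are heart 5 and the cluster's share is mostly miR-127-3p. In CPM after TMM scaling, heart 5 stood apart for miR-127-3p (2082, others 1209 to 1411), miR-434-5p (28.2, others 13.3 to 16.6), miR-434-3p (69.6, others 38.4 to 45.4) and miR-136-3p (82.3, others 41.6 to 53.7). It also stood apart in the share of the library held by the cluster (0.239%, others 0.130% to 0.157%) and in the sum of the other Dlk1-Dio3 miRNAs (660 CPM, others 399.9 to 473). Heart 4 stood apart in the 5p share of miR-433 (10%, others 0%), which is 1 read of 10.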

How the results depend on the processing

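The arm calls of the members held in direction and side of the threshold in all 64 fits of single hairpins under the alternatives. With a minimum mean of 100 reads 3 of 3 members remained testable and were called. Without heart 5 or heart 6, miR-433 fell under the minimum and 5 of 6 were called, so leaving out hearts gave 5 to 6 calls. Both arms come from the same library, and without that replicate block 6 of 7 members were called, so it changed no call. The count of members that varied beyond counting was 4 of 8 under TMM (70.7% of all miRNAs), 4 of 8 under DESeq2 size factors (70.4%) and 4 of 15 with no filter (26.7%). With a heart left out it was 2 to 7 (65.5% to 69.9% of all), lowest without heart 5. Heart 5 passed Dixon's limit as the highest heart for 4 of 8 members after TMM scaling and for 3 of 8 on library totals. The median r of the member pairs was 0.933 over the 3 pairs with a mean of at least 100 reads, and 0.131 to 0.733 with a heart left out, lowest without heart 5. The r of miR-127-3p and miR-136-5p ran from -0.320 (without heart 5) to 0.777. Which members had an unadjusted p under 0.05 with miR-127-3p depended on the scaling and on single hearts (exact permutation test). On library totals miR-136-3p (0.0278), miR-337-5p (0.00278) and miR-434-5p (0.0389) had it too. With DESeq2 size factors miR-431-5p did not (0.0639). With heart 1, 2, 3 or 5 left out, miR-434-3p did not have it (0.0667 to 0.183). Nor did miR-431-5p with heart 1, 2, 5 or 6 left out (0.0667 to 0.267). The r of the summed cluster with the other Dlk1-Dio3 miRNAs was 0.966 on library totals and 0.960 with DESeq2 size factors, and 0.562 to 0.982 with a heart left out. Members whose ratio to miR-127-3p varied numbered 0 to 1, and members whose arm share varied 0 to 1, in both cases 0 without heart 1 or heart 5. Members under a mean of 10 reads are too few in reads for a spread to be judged.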
